A study of Caenorhabditis elegans with 2 samples.

Results

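The genes described here are the 115 nuclear tRNA genes, of 612 in the RefSeq annotation of Caenorhabditis elegans WBcel235 (build ce11), whose annotated product carries one of 4 residues: aspartate (Asp, 27 genes), glutamate (Glu, 41), asparagine (Asn, 20) or glutamine (Gln, 27). Asp and Glu are the acidic residues and Asn and Gln their amides. The genes were chosen by annotated product alone, and the anticodon was read from the gene sequence. Chromatin bound by RNA polymerase III was pulled down and sequenced (ChIP-seq) with an antibody named rpc-1, for the largest subunit of the enzyme. The material was whole young adult worms of the wild type strain N2, which the labels give as a pool of males and females, with 1 group of 2 biological replicates and no second condition. Whole worms mix all tissues, so many cells with little polymerase and few cells with much of it cannot be told apart. The peak calling also used a control library, which is not analysed here.

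A tRNA gene carries its promoter inside the transcribed part. An upstream element, the A box, and a downstream element, the B box, are bound by the factor TFIIIC, which brings in TFIIIB and then polymerase III, and a run of T after the gene ends transcription. Asn and Asp codons are read by a single anticodon each (GTT and GTC in the gene), whose first base can be replaced by queuosine in the mature tRNA. Glu and Gln codons are read by a pair of anticodons each, one starting with C (CTC for Glu, CTG for Gln) and one with T (TTC for Glu, TTG for Gln), and that T, a U in the tRNA, is modified by the Elongator complex and its partners.

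The 6 anticodon classes were Asp-GTC (27 genes), Asn-GTT (20), Glu-CTC (24), Glu-TTC (17), Gln-CTG (7) and Gln-TTG (20). In each class most genes had 1 identical sequence, shared by 21 Asp, 18 Asn, 20 Glu-CTC, 15 Glu-TTC, 5 Gln-CTG and 15 Gln-TTG genes. The other 21 genes each had a sequence of their own and are called altered copies below. Among them, B0228.t1 differs only by where its ends were annotated, and it is counted as altered throughout. Positions count from 1 at the 5′ end of the gene, and a token such as G53A gives the base of the commonest copy, the position and the base of the altered copy. The commonest Glu sequences of the 2 anticodons differed at 13 of 72 bases. The commonest Gln sequences differed at only 2 of 72, one in the anticodon (T34C, going from TTG to CTG) and one near the 3′ end (A68G). Both Gln genes are shown because they carry an unusual B box, with the anticodon in capitals (RefSeq, WBcel235; R04A9.t1 at chrX:410391-410462, plus strand, and H35N09.t2 at chrX:8608834-8608905, minus strand).
R04A9.t1: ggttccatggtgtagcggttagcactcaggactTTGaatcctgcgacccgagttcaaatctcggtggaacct
H35N09.t2: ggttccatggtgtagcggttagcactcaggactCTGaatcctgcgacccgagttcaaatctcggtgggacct

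Altered copies are shown because the signal differed most between them, with the bases that differ from the commonest copy in capitals. For Gln-TTG the whole gene is given: F47E1.t2 (chrX:9074672-9074743, minus strand), D1009.t1 (chrX:8925641-8925712, plus) and H08J11.t2 (chrX:9091310-9091381, plus). For the others a stretch around the change is given, in Asn-GTT gene ZK154.t1 (positions 41 to 65, chrX:7773230-7773254, plus), Asp-GTC genes Y54G2A.t1 (34 to 58, chrIV:2800132-2800156, plus), Y54G2A.t3 (1 to 24, chrIV:2805627-2805650, plus) and C06G1.t4 (38 to 62, chrX:16617902-16617926, minus), Glu-CTC gene F52E10.t1 (5 to 29, chrX:16273771-16273795, plus) and Glu-TTC gene Y69A2AR.t2 (40 to 64, chrIV:2639817-2639841, minus).
F47E1.t2: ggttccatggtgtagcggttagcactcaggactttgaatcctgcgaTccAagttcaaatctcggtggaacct
D1009.t1: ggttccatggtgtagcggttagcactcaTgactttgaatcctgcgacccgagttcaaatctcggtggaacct
H08J11.t2: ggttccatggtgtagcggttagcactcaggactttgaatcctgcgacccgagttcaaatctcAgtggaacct
ZK154.t1: gaaaggttggtgAttcgagcccacc
Y54G2A.t1: gtcacatgcgagGcccgggttcaat
Y54G2A.t3: tcctcggtagtGtagtggtgagta
C06G1.t4: catgcgagacccTggttcaattccc
F52E10.t1: ttgtggtctagtAgttaggatttat
Y69A2AR.t2: cacgcggcccggTttcgattcccgg

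Nearly all of these genes carried the polymerase. A gene was called occupied when it overlapped a peak of the thresholded list, 1320 peaks that the authors derived from both replicates by the irreproducible discovery rate procedure. Of the 115 genes 112 were occupied (97.4%, exact Clopper-Pearson 95% interval 92.6 to 99.5%), against 454 of the 497 other nuclear tRNA genes (91.3%, interval 88.5 to 93.7%). Over all 612 the share was 92.5%, which the interval of the 115 narrowly left out, and genes are not independent replicates. All 27 Asp genes and all 20 Asn genes were occupied. Of the Glu genes 39 of 41 were (95.1%) and of the Gln genes 26 of 27 (96.3%). Such intervals cover counting error only, and the read depth of the libraries is unknown.

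The share depended on how strict the call was. Among the stronger 660 peaks of the list, 105 of the 115 genes were occupied (91.3%), beside 83.0% of all nuclear tRNA genes. Among the 1320 strongest regions of each replicate's own list, which holds 30000 regions, 101 genes were met in replicate 1, beside 85.9% of all nuclear tRNA genes, and 111 in replicate 2, beside 92.2% of them. All 101 genes met in replicate 1 were also met in replicate 2.

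How strong a peak was is given by the authors' signal, column 7 of their lists, whose scale differs between lists, so values are set side by side only within a list. In the thresholded list the occupied genes had a median signal of 359, against 367 at the other nuclear tRNA genes, and a median rank of 338, against 329.5. The log2 ratio of these medians was -0.032. In replicate 1's own strongest regions it was 0.099 and in replicate 2's -0.046. As a whole, then, the 4 residues lay at the level of the remaining tRNA genes, and the differences were within the set.

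Between classes the medians were up to about 1 log2 unit apart, while the genes of a class spread far more widely. The Glu-CTC genes had the highest median, 458 (range 38.1 to 1269, 22 occupied genes), followed by Gln-CTG with 447 (196 to 798, 7 genes). Gln-TTG genes had 366 (50.8 to 798, 19), Asp-GTC genes 343 (54.9 to 823, 27) and Glu-TTC genes 318 (183 to 782, 17). Asn-GTT genes had the lowest, 227 (41.1 to 802, 20), and a median rank of 532.5. All 6 ranges overlapped.

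Asp genes were higher than Asn genes by 0.60 on the log2 scale of medians, by 0.85 in replicate 2's list and by 0.46 in replicate 1's. The difference was present on X, where Asp genes had a median of 551 and Asn genes 420, and on autosomes, where they had 338 and 195. Glu and Gln genes had medians of 379 and 389, a log2 ratio of -0.036 that turned positive in several other readings, up to 0.42 among lone genes, those that have no second tRNA gene within 500 bp. No order of Glu and Gln can be read from these values.

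**Figure D1:**
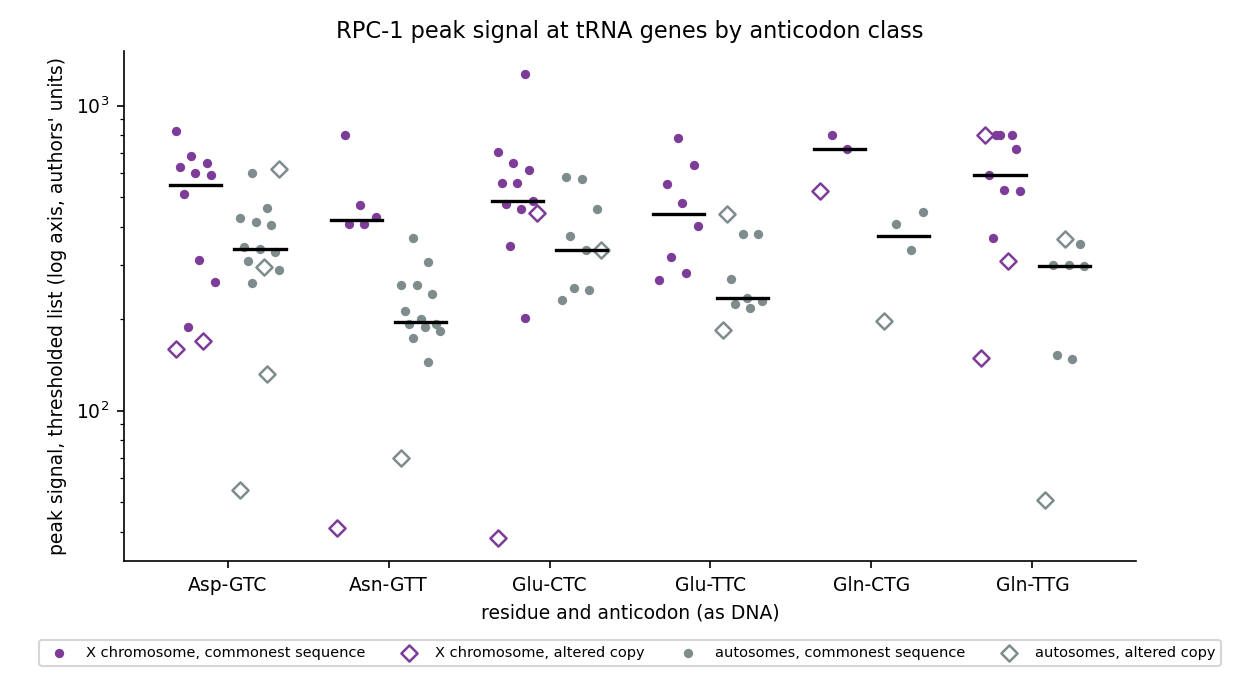
Peak signal in the thresholded list (log axis, authors' units) for each occupied gene of the 6 anticodon classes, X chromosome left and autosomes right, with filled circles for the commonest sequence of a class, open diamonds for altered copies and a black bar at the median. The X median is above the autosomal one in all 6 classes, and the lowest point of each class is a diamond. In Gln-TTG that diamond is C36F7.t1 (50.8), which did not resemble its class. Next there come the commonest copy F08G5.t2 (147.9) and the altered copy F47E1.t2 (148.3). The 3 genes with no peak are not drawn.

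Genes on X had the higher signals. The 3 genes with no thresholded peak also lie on X and have no value here. The 53 occupied X genes had a median of 524, against 295 at the 59 autosomal genes, a log2 ratio of 0.83. The ratio was 0.74 with replicate 1's own signals and 0.81 with replicate 2's. At the other nuclear tRNA genes the X median was also higher, 442 at 207 genes against 310 at 247, with a log2 ratio of 0.51, so the direction is shared by tRNA genes in general. Whether the sizes 0.83 and 0.51 differ was not tested. The X median was the higher one in all 6 classes, by 0.53 (Glu-CTC) to 1.10 (Asn-GTT) on the log2 scale.

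Identical copies of a gene were also compared within each class. Pooled over the 6 commonest sequences, which are on X in different shares, the X median was 554, against 299 on autosomes. The ranges on X and autosomes overlapped in every list for Asp (188 to 823 on X against 262 to 602 on autosomes in the thresholded list), Glu-CTC (201 to 1269 against 230 to 585) and Glu-TTC (268 to 782 against 217 to 379). The 5 X-linked copies of the commonest Asn gene ranged from 410 to 802, and the 13 autosomal copies from 144 to 368. The Asn ranges did not overlap in the thresholded list or in replicate 2's own list (265 to 523 against 90.6 to 237, 5 and 12 copies). They did in replicate 1's (126 to 280 against 48.2 to 138, 4 and 12 copies). Of the X copies, ZK154.t2 and ZK154.t5 share a peak. The Gln-CTG copies had 721 to 798 on X (2 genes) and 335 to 447 on autosomes (3). Those ranges overlapped in replicate 1's list and by the nearest summit, but not in replicate 2's list.

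The occupied Gln-TTG copies of the commonest sequence ranged from 369 to 798 on X (8 genes) and from 148 to 352 on autosomes (6). The X copy C05E7.t2, with no thresholded peak, is not among them. With it, the ranges overlapped in both replicates' own lists. They were 10.98 to 261 against 40.0 to 120 in replicate 1 and 12.1 to 542 against 112 to 231 in replicate 2. Here several X genes share a peak. When each gene took the summit nearest to it in place of the strongest one, the X copies began at 211 and the ranges overlapped. Among lone genes the log2 ratio of X over autosomes was 0.77 (30 against 48 genes), beside 0.59 at the other tRNA genes. X genes and autosomal genes also differed in their neighbours: 30 of the 53 on X and 48 of the 59 on autosomes were lone genes.

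Identical copies also differed widely among themselves. The strongest copy exceeded the weakest occupied one 6.32-fold for Glu-CTC, 5.56-fold for Asn, 5.39-fold for Gln-TTG, 4.38-fold for Asp, 3.60-fold for Glu-TTC and 2.38-fold for Gln-CTG. Commonest copies thus ran from a signal of 144, about the list's median of 145, to its top. The lowest commonest Gln copies were neighbours in introns of F08G5.3, with 335 at F08G5.t3 (Gln-CTG) and 148 at F08G5.t2 (Gln-TTG).

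The highest peak of the whole list lay over a Glu-CTC gene of the commonest sequence, M02F4.t2 (chromosome X, outside protein-coding genes). Its signal was 1269 in the thresholded list, 393 in replicate 1's list (rank 4) and 870 in replicate 2's (rank 3). It shares the peak with M02F4.t1, a glycine tRNA gene 117 bp away, so the signal cannot be assigned to either. The next Glu-CTC gene, rte-1 on X, had 702 in the thresholded list (231 in replicate 1 and 467 in replicate 2). For Glu-TTC the highest were C28G1.t1 (782), in an exon of C28G1.2, and F12D9.t2 (639). Both lie on X.

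For Asp the highest were F38G1.t2, in an intron of egl-17, a gene for a fibroblast growth factor, with 823 (273 in replicate 1 and 574 in replicate 2), and R03E1.t2 with 683, under a peak shared with the serine tRNA gene R03E1.t1. For Asn they were F41D9.t3, in an intron of sulp-3, with 802 (280 and 523), and T04F8.t1, in an intron of sto-4, with 472. For Gln-CTG they were H08J11.t1 (798) and H35N09.t2 (721), and for Gln-TTG H08J11.t5 and H08J11.t3 (798 each, under the same peak as H08J11.t1). At 798, H08J11.t4 and the altered copy H08J11.t2 were tied with these, under the same peak. All the genes named here lay on X, though by the nearest summit H08J11.t1, H08J11.t4 and H08J11.t5 had 398. Of the 100 strongest peaks in the list, 63 lay over a nuclear tRNA gene of any kind and 18 over genes of the 4 residues.

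Altered copies had the lower signals. They were occupied in 20 of 21 cases and the commonest copies in 92 of 94. The median signal was 190 at altered copies and 379 at commonest copies, a log2 ratio of -0.9996. It was -0.98 with replicate 1's own signals and -0.92 with replicate 2's, and -0.91 among lone genes. Among the 1320 strongest regions of replicate 1 alone, which leave out the weakest altered copies, it was -0.34. It was -1.71 on X, with 9 altered copies, and -0.61 on autosomes, with 11. Within their own classes, 10 of the 20 occupied altered copies lay below the lowest commonest copy, 16 lay below the commonest copies' median and 4 above it.

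By class the log2 ratio was -2.17 for Asn (2 altered copies), -1.34 for Asp (6), -0.53 for Gln-TTG (5), -0.50 for Glu-CTC (3 occupied), -0.31 for Gln-CTG (2) and -0.027 for Glu-TTC (2). The Glu-TTC ratio was 0.034 with replicate 2's signals, so no direction holds there. The copies also differ in how well reads can be placed. Of the stretches of 32 bases inside the gene, a median of 45% occurred once in the genome in altered copies and 0% in commonest copies. With 200 bp on each side the medians were 92.5% and 87.3%. The part of this in the lower signals was not tested.

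The lowest Asn gene was ZK154.t1, in an intron of deg-1, a degenerin channel subunit gene. Its only change from the commonest copy, G53A, falls within the B box. Its signal was 41.1 in the thresholded list (rank 1204), 13.7 in replicate 1's list and 45.6 in replicate 2's, below every commonest Asn copy that had a region in the same list. The commonest Asn copies nearest to it, ZK154.t2 and ZK154.t5, which share a peak, had 410. The summit at ZK154.t1 lay before the gene, at position -40 (-27 in replicate 1 and -19 in replicate 2). The other altered Asn gene, F27D4.t1, had 69.8 (12.5 in replicate 1 and 58.7 in replicate 2). It is annotated with a length of 77 bp, against 73 bp for the class. Of the 115 genes it alone lacks the A box pattern given below. Only 52.9% of the 32-base stretches around it occur once in the genome.

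A group of Asp genes on chromosome IV, Y54G2A.t1 to Y54G2A.t5, held 4 altered copies with 1 substitution each within 8328 bp. Y54G2A.t3 (A12G, in the A box) had a signal of 617, 206 in replicate 1's list and 413 in replicate 2's. The summit lay past the 3′ end of this 72 bp gene, at position 132 (105 in replicate 1). Whether the 617 belongs to Y54G2A.t3 was not tested. Y54G2A.t2 (A37G, next to the anticodon) had 295, Y54G2A.t4 (G69T) 132 and Y54G2A.t1 (A46G) 54.9. The summit at Y54G2A.t4, at position 119, also lay past the end of its gene. The strongest was thus 11.2 times the weakest, while Y54G2A.t5, which has the commonest sequence, had 309. Y54G2A.t1 was weak in both replicates, with 12.1 (rank 2947) in replicate 1 and 33.7 (rank 1064) in replicate 2. It lies in an annotated exon of Y54G2A.10.

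The remaining altered Asp copies were F22F1.t5, with 159 and changes in the last 3 bases (G70A, A71G and G72A), and C06G1.t4, with 169 and G50T next to the B box. Both lie on X, and both were below the lowest commonest Asp copy, F22F1.t9 (188). F22F1.t5 and F22F1.t9 each share their peak with a serine tRNA gene, F22F1.t4 and F22F1.t8. Of the altered Gln genes, K02E11.t1 (C16T, in the A box) had 196 and F47E1.t2 (C47T and G50A) 148. D1009.t1 (G29T) had 309 and B0228.t1, which differs only by where its ends were annotated, 366. F54F7.t1 (G30T) had 524 and H08J11.t2 (G63A) 798, but both share a peak with other Gln genes, and the summit nearest to F54F7.t1 had 312.

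Some altered copies were not weak. Glu-TTC gene Y69A2AR.t2, in an exon of mdf-2, carries C4T and G52T, the second within the B box, and had a signal of 441 (146 in replicate 1 and 297 in replicate 2), above the Glu-TTC median of 318. It lacks both B box patterns given below. Set beside ZK154.t1, which is also altered within the B box, it was 441 against 41.1, so a change there went with a low signal at one gene and not at the other. Glu-CTC genes C39D10.t1 (G70A) and ZK783.t1 (C39T) had 444 and 337, within the range of the commonest copies. The summit at C39D10.t1, at position 94 (94 in replicate 1 and 91 in replicate 2), lay past the end of this 72 bp gene. The other altered Glu-TTC gene, F27B10.t1, is 1 base shorter than its class, at 71 bp, and had 183, against 217 at the lowest commonest copy, C44B7.t1.

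Of the 3 genes with no thresholded peak, 2 belong to a group of 5 Glu-CTC genes on X, F52E10.t1 to F52E10.t5. The group spans 14071 bp, and each of its genes lies outside protein-coding genes. F52E10.t5 and F52E10.t3, of the commonest sequence, had signals of 613 and 201. F52E10.t2 had 38.1, the lowest of all 112 occupied genes, with 11.9 in replicate 1's list (rank 3125) and 26.6 in replicate 2's (rank 1207). F52E10.t1 (G17A, in the A box) met no region of replicate 1's list and 1 of replicate 2's at rank 24685 with a signal of 2.67. F52E10.t4 has the commonest sequence, the same as F52E10.t5, and met no region in any list. Of the 32-base stretches around F52E10.t1 and F52E10.t4, 57.6% and 53.3% occur once in the genome, against a median of 87.3% over the 115 genes. The part of this in the missing peaks was not tested. Of the 7 genes under 60%, the other 5, all Asn genes, were occupied. Their median signal was 192, against 359 over the 112 occupied genes.

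F52E10.t2 was the only one of the 115 genes with no TTTT in the 20 bases after it. It has 4 changes, G9T in the A box and G69A, G70A and A72T at the 3′ end. Its end is shown with the bases that follow (chrX:16274558-16274581, plus strand, changed bases in capitals), beside the 20 bases after F52E10.t3 (chrX:16285275-16285294, minus) and F52E10.t5 (chrX:16271276-16271295, minus), whose first run of 4 or more T is in capitals. With its changed last base the gene and the 3 T after it make a run of 4 T that starts inside the gene.
F52E10.t2: cccgcaacAAaTtttgtatggcta
F52E10.t3: tataTTTTTTacttttgttt
F52E10.t5: taaTTTTTTTaaaatttaat

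**Figure D2:**
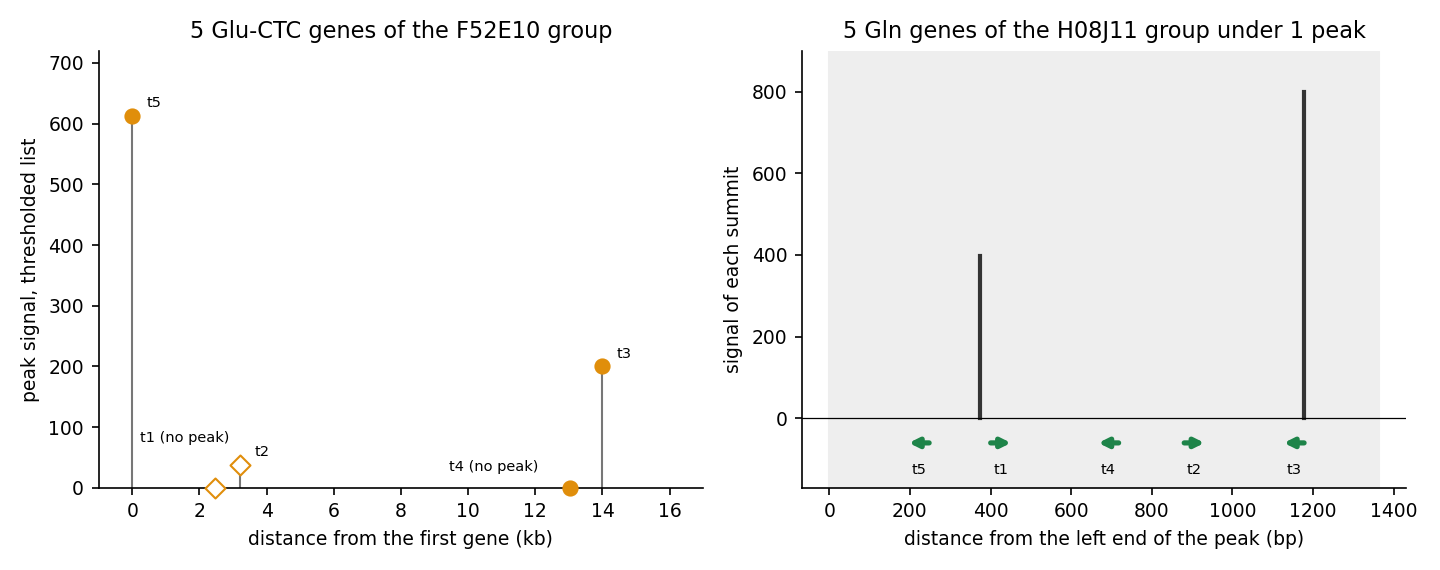
Left, peak signal in the thresholded list against distance along the chromosome (kb from the first gene) for the 5 Glu-CTC genes of the F52E10 group, with filled circles for the commonest sequence, open diamonds for altered copies, and genes with no peak at 0. F52E10.t5 and F52E10.t3 stand at 613 and 201 and F52E10.t2 at 38.1. Right, the signal of the 2 summits (398 and 798) of the peak (shaded) over the 5 Gln genes of the H08J11 group, against distance from its left end (bp), with the genes as arrows in their direction of transcription.

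The third gene with no thresholded peak was C05E7.t2, a Gln-TTG gene on X of the commonest sequence, the same as R04A9.t1 above. R04A9.t1 had a signal of 590 in the thresholded list. C05E7.t2 met regions of low rank in both replicates, with a signal of 10.98 (rank 4103) in replicate 1 and 12.1 (rank 2308) in replicate 2. The identical gene C05E7.t1, 410 bp away, had a thresholded signal of 369, and 140 and 226 in the replicates' lists. Uniqueness around both was the same, 88.2%.

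Gln genes were also peculiar in the B box. The usual B box pattern, GTTCNANNC with a further G before it and a C after it, was in 87 of the 115 genes (75.7%), against 83.7% of the other tRNA genes and 82.2% of all nuclear tRNA genes. It was in 27 of 27 Asp, 40 of 41 Glu and 19 of 20 Asn genes, but in 1 of 27 Gln genes. The core GTTCNANNC alone was in all 27 Gln genes, in 113 of the 115 (98.3%), and in 95.9% of all nuclear tRNA genes. The 2 without it were ZK154.t1 and Y69A2AR.t2. Gln genes lacking the longer pattern were occupied in 25 of 26 cases. All patterns were searched on the gene's strand. The A box pattern, TNG followed after 3 bases by ANNNG, was found in the first 30 bases of 114 genes and in 97.4% of all nuclear tRNA genes. The changes placed in the A box above (G9T, A12G, C16T and G17A) fall on bases that this pattern leaves free. The genes with these changes therefore kept the pattern. TTTT was found within 20 bases after 114 genes, and after 98.4% of all. The core, the A box pattern and TTTT were in nearly every gene, so they could not tell most strong peaks from weak ones. Among the occupied genes lacking any of these, F52E10.t2 (no TTTT) had 38.1 and ZK154.t1 (no core) 41.1. F27D4.t1 (no A box pattern) had 69.8, but Y69A2AR.t2 (no core) had 441. The part of the missing patterns in these signals was not tested.

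The 1 Gln gene with the longer B box pattern, C36F7.t1 on an autosome, did not resemble its class. It is annotated with a length of 83 bp and is identical at 82 bases to 4 identical isoleucine tRNA genes of 85 bp (C36F7.t2, C36F7.t3, F47A4.t1 and T22C1.t1), but at only 48 to the nearest Gln gene, B0228.t1. Its signal was 50.8 (15.6 in replicate 1 and 31.98 in replicate 2), the lowest of the 26 occupied Gln genes in the thresholded list. Of the 4 isoleucine genes, C36F7.t3 and T22C1.t1 had 38.2 and 62.7 and the others no peak. Without C36F7.t1 the log2 ratio of altered over commonest copies was -0.95.

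Many peaks covered more than 1 gene. The 112 occupied genes lay under 105 peak intervals, of which 91 held 1 tRNA gene, 14 held 2 or more and 7 held 2 or more genes of the 4 residues, 17 genes in all. The widest case was an intron of ajm-1, a gene of the epithelial apical junction, where 1 interval of 1364 bp (chromosome X, 9090440 to 9091803) covered the 5 Gln genes H08J11.t1 to H08J11.t5, including H08J11.t1 of Gln-CTG and 4 of Gln-TTG. Its 2 summits had signals of 398 and 798. In replicate 1's own list H08J11.t4 and H08J11.t2 lay in gaps between regions, while H08J11.t3 had 261 and H08J11.t1 and H08J11.t5 shared 154. Replicate 2's list gave 542 to all 5.

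Another shared case was the divergent pair H35N09.t2 (Gln-CTG) and H35N09.t1 (Gln-TTG), 133 bp apart, where the interval's 2 summits had 721 and 211, the stronger one at H35N09.t2. Genes with another tRNA gene within 500 bp had a median signal of 391 (34 occupied genes) and those without one 341 (78), but more of them were on X, 24 of 35 against 32 of 80. On X the medians were 524 and 508, and on autosomes 258 and 299, so the order was not the same on both. By place, the 45 genes in introns were all occupied, with a median of 379. The 4 in exons were all occupied, with a median of 521, and 63 of the 66 between genes, with 318. Of the between-gene loci 37 of 66 were on X, against 18 of 45 intronic ones.

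Along the gene, summits lay at the start and the end more than in the middle. This was read at the 78 lone occupied genes, with stretches chosen after the positions were seen. Measured from the middle of the gene, the median summit position was -14.25 bp, on the 5′ side (quartiles -23 and 25.5), against -18 bp at 328 other lone tRNA genes. It was -14.0 bp in replicate 2's list and -5.25 in replicate 1's, or -1.25 among replicate 1's strongest regions alone, so its size was not stable. Inside the gene were 68 of the 78 summits (87.2%), against 82.9% at the others. Of the 78, 41 fell at positions 1 to 25, around the A box, and 3 at 26 to 45. From 46 to the end, around the B box, were 24, with 2 before and 8 after the gene. These stretches held 33, 8 and 21 summits in replicate 1's list and 38, 6 and 20 in replicate 2's. At the 328 other lone tRNA genes they held 179, 26 and 67 in the thresholded list. Inside the gene, the share of sequence occurring once in the genome, counted as above, had a median of 0% over the 115 genes. The part of read placement in the summit positions was not tested.

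Glu genes stood on the 5′ side. Of 30 lone Glu genes, 24 (interval of the share 61.4 to 92.3%) had the summit at positions 1 to 25, beside 54.6% at the other lone tRNA genes. The number was 18 with replicate 1's summits and 21 with replicate 2's, beside 34.9% and 45.1% at the others. For Glu-TTC it was 12 of 13 and for Glu-CTC 12 of 17 in the thresholded list. Asp genes had 9 of 21, Gln genes 5 of 14 and Asn genes 3 of 13. Counted by side of the midpoint, 25 of 30 Glu genes were on the 5′ side (21 in replicate 1, 26 in replicate 2). At the other lone tRNA genes it was 208 of 328 (178 of 327 in replicate 1, 189 of 328 in replicate 2), so a majority on the 5′ side was not particular to Glu. For Asp it was 9 of 21, for Asn 5 of 13 and for Gln 7 of 14. Both replicates put the summit on the same side at 23 of 30 Glu, 12 of 21 Asp, 10 of 13 Asn and 11 of 14 Gln genes.

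**Figure D3:**
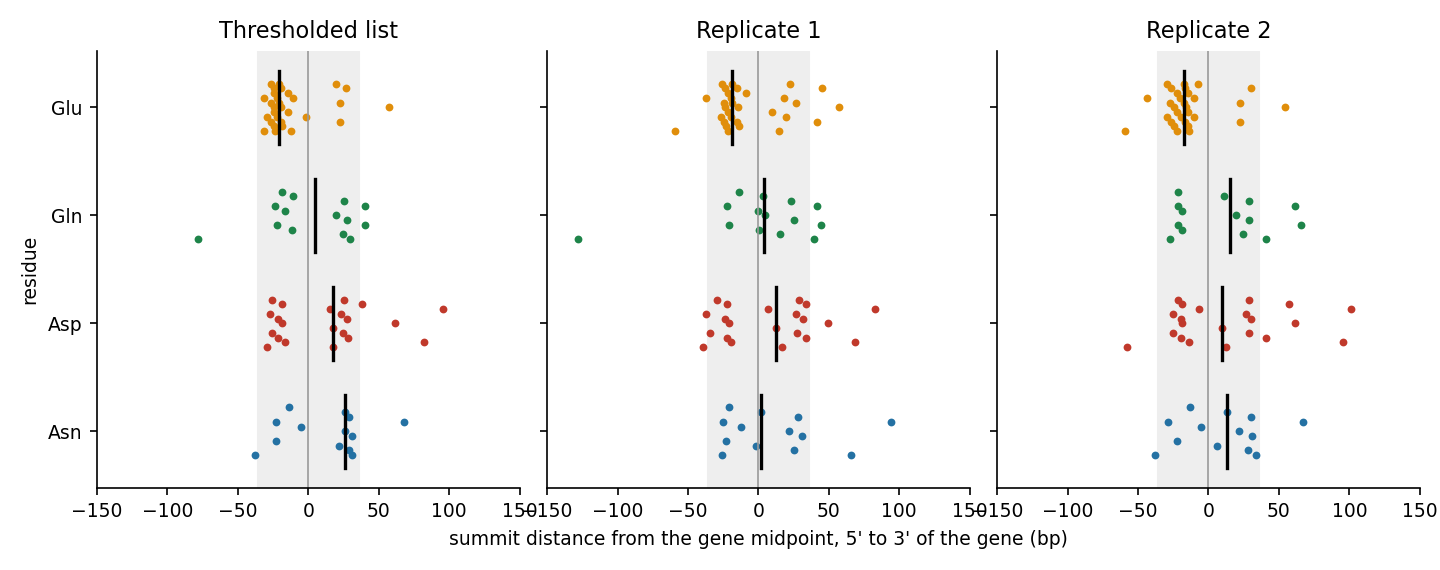
Summit distance from the middle of the gene (bp, negative towards the gene's 5′ end) for lone occupied genes of each residue, in the thresholded list, replicate 1's list and replicate 2's list, with the extent of a 72 bp gene shaded and the median as a black bar. Glu summits gather on the left of the midpoint in all 3 panels, with 25, 21 and 26 of 30 genes, while the other residues lie on both sides.

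The replicates' values were set side by side. For the 106 genes with a region in both own lists and a thresholded peak, Pearson's r of the log2 signals was 0.912 and Spearman's rho 0.888, given as a description, since genes that share a peak share a value and the thresholded list itself keeps regions that rank alike in both replicates. The ranks were within a factor of 2 at 96 of the 106. Signals ran from 11.9 to 393 in replicate 1 (median 115) and from 26.6 to 870 in replicate 2 (median 231). The largest rank differences were at F52E10.t2, Y54G2A.t1 and F27D4.t1, all altered copies and all ranked lower in replicate 1 (3125, 2947 and 2661) than in replicate 2 (1207, 1064 and 820). Of the occupied genes 6 met no region of replicate 1's list. All 6 have another tRNA gene within 500 bp, and the nearest region began 2 to 114 bp away. Only F57G8.t4, an Asn gene among those 6, met none in replicate 2's.

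**Figure D4:**
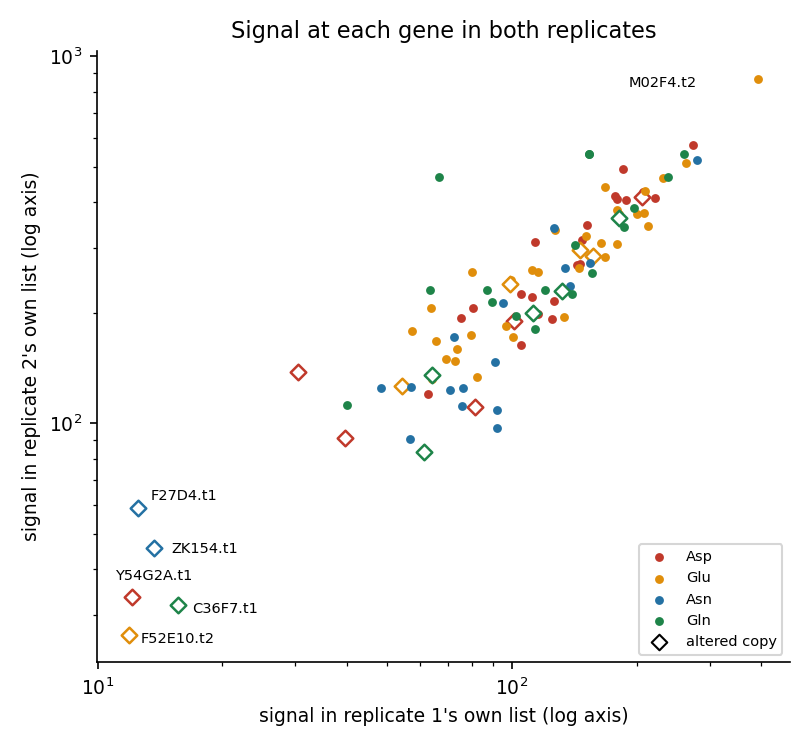
Signal in replicate 1's own list (x axis) and replicate 2's (y axis), both log axes, for each gene with a thresholded peak and a region in both, coloured by residue, with open diamonds for altered copies. M02F4.t2 stands at the top (393 and 870), and the 5 genes at the lower left, named in the plot, are altered copies. C05E7.t2, which has no thresholded peak, is not drawn.

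Protein-coding genes linked by name to tRNAs of these residues were looked at for peaks of their own. Which of them act on tRNAs from the nuclear genes was not looked at. The list held 16 protein-coding genes, the aminoacyl-tRNA synthetases of the 4 residues and genes for queuosine and wobble-uridine modification. Only ears-2, named for a glutamyl-tRNA synthetase (chromosome IV, 388686 to 390468), had a thresholded peak within 250 bp of its 5′ end, with a signal of 306 (rank 416), 94.5 in replicate 1 (rank 443) and 216 in replicate 2 (rank 395). The nearest tRNA gene lay 67765 bp from that end. Over all 19971 protein-coding genes the share was 1.80%, so 1 of 16 is not a result about the list. The synthetase genes dars-1, dars-2, ears-1, nars-1, nars-2 and qars-1, the queuosine enzyme genes tgt-1 and tgt-2, the Elongator genes elpc-1 to elpc-4, and tut-1, tut-2 and alkb-8 had none.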

How the data were processed

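Per the submitters' list of files, the authors called relaxed lists with a control on each replicate and on both pooled, and derived the thresholded list from these. The sources used here give no aligner, peak caller, version or read depth. Column 7 of the deposited lists is a signal value per peak, used within a list only. Coordinates are 1-based on ce11, which is RefSeq's WBcel235.

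A gene took the strongest overlapping peak. Uniqueness is the percentage of 32-mers found at a single genomic place, over the gene and 200 bp to either side. No test was made, since there is 1 group of 2 samples. The members and lists were chosen with earlier results of these data known, and the X, altered copy and summit stretch comparisons after seeing the data. By rule the named genes were those with no peak, the 2 highest and 2 lowest of each class, the 3 largest rank differences and shared peaks. The altered copies, R04A9.t1, and genes set beside these were named after their values were seen. Leaving out a replicate meant taking the 1320 strongest regions of the other's own list. The code was tested on simulated data. Python 3.11.15, NumPy 2.4.6, pandas 2.3.3, SciPy 1.17.1, Biopython 1.88 and Matplotlib 3.10.9 were used.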

Additional observations from a re-analysis of the deposited data

How the results depend on the processing

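The results were recomputed under other settings. Of 67 recomputed values, 52 moved by less than the spread between the replicates' own lists or the exact interval, 10 moved by more and 5 changed sign. That spread is the standard deviation of the values with either replicate left out, and those values were themselves judged by it. It widens as the replicates differ, so the count is no measure of stability. Asp over Asn, for example, went from 0.60 to 0.85 without replicate 1, inside a spread of 0.28. The share of occupied genes was 91.3% with the stronger 660 peaks, 92.2% with a summit within 100 bp of the gene, and between 87.8 and 96.5% with either replicate left out (Asn genes between 80 and 95%). The log2 ratio of these genes over other tRNA genes lay between -0.046 and 0.099 with either replicate left out. Glu over Gln lay between -0.020 and 0.097, and was 0.19 with 1 value per distinct peak, 0.42 among lone genes and 0.079 by the nearest summit. Asp over Asn became 0.94 among lone genes. The summit offset lay between -14.0 and -1.25 bp with either replicate left out. Settings chosen after seeing the data gave X over autosomes 0.70 with 1 value per distinct peak, 0.67 by the nearest summit, and between 0.69 and 0.81 with either replicate left out. Altered over commonest copies lay between -0.92 and -0.34 in the same way. The -0.34, without replicate 2, covers only the 1320 strongest regions of replicate 1, which leave out the weakest altered copies, and over all of replicate 1's regions it was -0.98. The causes of the other changes were not tested. Of the 24 genes named as the 2 highest and 2 lowest of each class, 2 took another signal by the nearest summit. These were H08J11.t1 and H08J11.t5, with 398 in place of 798. No paired analysis was possible because there is 1 group. The unknown depth limits what can be said of the 3 genes with no peak.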
